A study of Mus musculus with 9 samples.

Results

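Besides its circRNA probes, the mouse circRNA array carried 94 test probes whose names lack the prefix of the circRNA probes, and these were examined in RNase R-treated liver RNA. They were chosen by their names alone, and they made up 94 of the 14330 features on the array. Each was printed in 10 spots, whereas each of the 14236 circRNA probes had 1 spot. By name they fell into 4 classes, namely 50 Agilent mouse gene probes (A_51_P), 15 custom probes (CUST), 14 probes called AS_circRNA_control and 15 probes called MM9NEGATIVE. The 9 arrays held liver RNA of male C57BL/6 mice, 3 arrays in each group, and the 3 livers of a group were picked at random. Sham mice were operated on to free the vessels of the liver, whose flow was not blocked. IRI mice had 1 h of ischemia of part of the liver and 6 h of reperfusion, and IPC mice had the same injury after a short occlusion of 10 min that was released for 10 min. The labels name no transgene or drug in any group. The livers were bulk tissue, so fewer cells of a type and less RNA per cell cannot be told apart.

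RNase R is an exonuclease that digests linear RNA from a free end. A circRNA, formed when the end of an exon is spliced back to an upstream start, has no free end and resists it. The treatment is therefore used before labeling to enrich circRNAs, and probes for ordinary mRNAs on the same array show how much signal such probes still give. A probe placed inside an exon does not tell the linear mRNA of a gene from a circRNA that holds the same exon. All 9 arrays held treated RNA, so the removal of linear RNA was not measured. For the CUST, AS_circRNA_control and MM9NEGATIVE probes the files give names only, and the sources used here do not say what they target. No sequence of the 94 probes was in the files used here. Of the 50 A_51_P probes, 44 were matched through their transcript accessions to a gene symbol in the RefSeq table of the mouse assembly GRCm38.p6, and 6 keep their probe names.

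A probe counted as detected on an array when the scanner flagged the majority of its kept spots as well above background. Between 46 and 75 of the 94 probes were detected on an array, or 48.9% to 79.8%. AS_circRNA_control probes had 11 to 13 of 14 detected on an array, CUST probes 11 to 15 of 15, A_51_P probes 22 to 43 of 50, and MM9NEGATIVE probes 2 to 4 of 15. On all 9 arrays 43 probes were detected, made up of 19 A_51_P, 11 CUST, 11 AS_circRNA_control and 2 MM9NEGATIVE probes. On no array were 19 probes detected, of which 11 were MM9NEGATIVE, 7 A_51_P and 1 AS_circRNA_control. Of the circRNA probes, 5890 of 14236 (41.4%) were detected on all 9 arrays and 2190 (15.4%) on none, against 45.7% and 20.2% of the 94 probes. Per array, the share detected among the 94 probes was 2.18 percentage points above that of the circRNA probes, which the exact two-sided sign-flip permutation test over the 9 arrays did not separate from 0 (P = 0.0547). That difference changed with the rule for 10 spots against 1 and with the flag. It was −3.50 points when every kept spot had to be well above background and 7.73 points when 1 spot was enough. With the flag for positive and significant signal it was −4.95 points. The exact sign-flip P was 0.00391 in each of these cases.

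**Figure D1:**
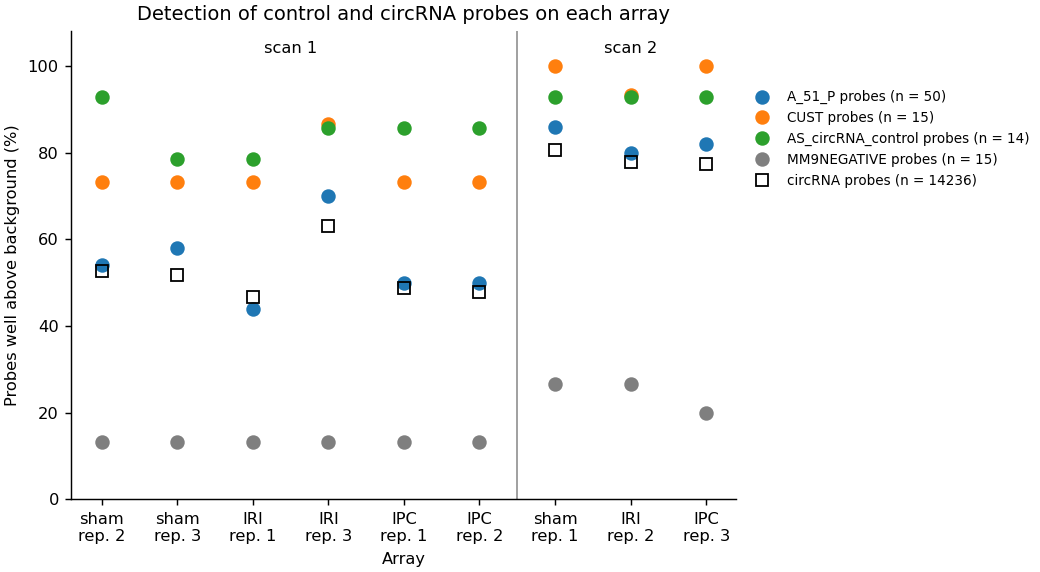
Percentage of the probes of each class that were well above background (vertical axis) on each of the 9 arrays (horizontal axis), with arrays ordered by scan. On the 3 arrays of scan 2 the A_51_P probes sit at 80% to 86% and on the 6 arrays of scan 1 at 44% to 70%, and MM9NEGATIVE probes are lowest on every array.

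The brightness of a probe also depends on its own sequence, so signals of different probes are not amounts of RNA that can be set against each other. As a description, the median log2 processed signal per array was 3.71 to 4.87 over the 94 probes and 3.56 to 4.54 over the circRNA probes. The difference between these medians averaged 0.198 over the 9 arrays, 0.046 after normexp background correction, 0.066 without background correction and 1.261 over the probes of both kinds detected on all 9 arrays. By class the median log2 signal per array was 7.72 to 8.41 for AS_circRNA_control, 5.10 to 7.04 for CUST, 3.59 to 4.68 for A_51_P and 0.20 to 1.93 for MM9NEGATIVE probes. No spot of the 94 probes was marked as saturated.

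Of all 94 probes, the brightest on average was the A_51_P171999 probe for Apoe, the apolipoprotein that hepatocytes secrete on lipid particles and the only gene of the hepatocyte marker list with a probe in this set. Its log2 processed signal was 12.65, 12.55 and 12.50 on the sham arrays, 12.35, 12.66 and 12.35 on the IRI arrays, and 12.75, 12.94 and 12.05 on the IPC arrays. All 9 values lay between 12.05 and 12.94, and the groups overlapped. Other high means were those of AS_circRNA_control3000009 (10.52), Pex11a (9.73), which acts in the division of peroxisomes, and AS_circRNA_control3000013 (9.54). The 3 lowest means were those of Cav2 (1.06), a component of caveolae, MM9NEGATIVE012 (1.06) and MM9NEGATIVE006 (1.07), and none of these was detected on any array.

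In the MM9NEGATIVE class 2 probes stood apart from the other 13. MM9NEGATIVE016 gave log2 signals of 5.40, 4.42 and 5.13 on the sham arrays, 4.90, 5.79 and 5.89 on the IRI arrays, and 5.60, 4.81 and 5.05 on the IPC arrays. MM9NEGATIVE017 gave 5.22, 4.13 and 4.66, then 4.71, 5.58 and 5.27, then 5.09, 4.64 and 4.86 in the same order. Neither fell below background on any of the 9 arrays, and their groups overlapped. The rest of the class had mean log2 signals of 1.06 to 2.65, and 11 of them were never detected. MM9NEGATIVE008 was detected on 2 arrays and MM9NEGATIVE015 on 3.

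The 44 named genes were sorted by what they are best known for, after their names had been seen and with earlier results known. Of 9 genes of liver metabolism and detoxification, 7 were detected on all 9 arrays and none was undetected throughout. They were Apoe, Pex11a, Ppara, Acaa2, Gamt, Gpi1 and Prdx2. Ppara is the nuclear receptor that drives fatty acid oxidation genes, Acaa2 catalyses the last step of mitochondrial beta-oxidation, Gamt makes creatine, Gpi1 is a glycolytic enzyme and Prdx2 reduces peroxides. Cpt1a, which brings long-chain fatty acids into mitochondria, was detected on 8 arrays, and the glutathione transferase Gsta4 on 6.

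Of 13 genes best known in other tissues, 6 were detected on all 9 arrays and 3 on none. Among the 6 were the developmental homeobox gene Lhx1, the T cell cytokine Il2, the oxidase Duox1 and the olfactory receptors Olfr166 and Olfr1307. The 3 were Tyr of pigment synthesis, Mbp of myelin and the potassium channel Kcnn2. Olfactory receptors form a large family with similar sequences, as do the MHC class I genes such as H2-Q7, so the assignment of these probes to 1 gene is uncertain. Of 13 genes of general cell functions, only Actb, the cytoskeletal actin on the housekeeping list, and the autophagy enzyme Atg3 were detected on all 9 arrays. In that group Cav2 and the centrosomal gene Cep41 were detected on none, and the other 9 on some arrays. Of 9 further named genes outside these groups, 2 were detected on all 9 arrays, 1 on none and 6 on some. Whether signal of a gene best known in another tissue came from its own transcript was not tested.

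The files date the arrays to 2 scans. Scan 2 held sham replicate 1, IRI replicate 2 and IPC replicate 3, and scan 1 the other 6, so each scan held all 3 groups. In scan 2 71 to 75 of the 94 probes were detected on an array, against 46 to 62 in scan 1. The mean share was 21.63 percentage points higher in scan 2 (exact two-sided permutation test over arrays, P = 0.0119, the smallest of 84 arrangements). The circRNA probes showed the same split, with 77.3% to 80.6% in scan 2 and 46.7% to 63.0% in scan 1. In both scans the CUST and AS_circRNA_control classes had the highest shares detected and MM9NEGATIVE the lowest.

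The median log2 signal of the 94 probes differed by 0.01 between the scans (exact permutation test, P = 0.964), and by −0.18 over the 43 probes detected on all 9 arrays (P = 0.464 in the same exact test). Without background correction the difference over the 94 probes was −0.563 (P = 0.0238 in the exact test). The 19 probes never detected had a median of 1.08 to 1.93 per array in scan 1 and of 0.20 to 0.35 in scan 2, and 1 of the 19 was higher in scan 2. Of the 43 detected on all arrays, 15 were higher, with a median difference of −0.20. The other 32 probes were sorted by a detection that itself differed between scans, so their difference is not given.

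**Figure D2:**
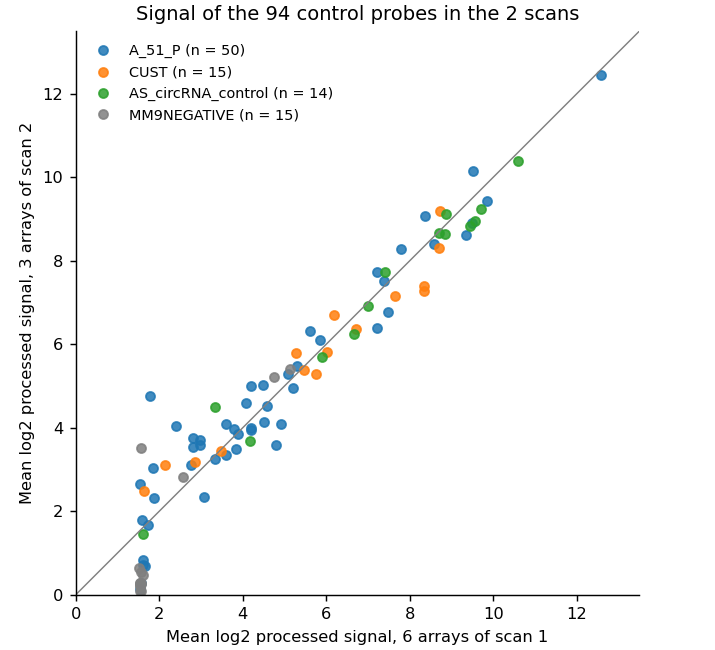
Mean log2 processed signal of each of the 94 probes over the 6 arrays of scan 1 (horizontal axis) and the 3 arrays of scan 2 (vertical axis), with points coloured by class and a line where both are equal. Of the 19 probes never detected, all but 1 lie below the line, and their medians were 1.08 to 1.93 per array in scan 1 and 0.20 to 0.35 in scan 2.

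After quantile normalization, limma with group and scan in the model was run over the features detected on all 9 arrays, so that no probe entered through 1 scan alone. Of the 43 probes, 11 differed between scans (adjusted P below 0.05 and at least 1.5-fold), 1 higher and 10 lower in scan 2. This was 25.6% of them, against 19.8% of all features tested, of which 480 were higher and 694 lower. The 3 largest positive differences among the 70 probes detected on at least 3 arrays were those of Carhsp1, an RNA-binding phosphoprotein, MM9NEGATIVE015 and the hyaluronidase gene Hyal3. They are given as values, with no test, and nothing is read from their rank. Carhsp1 and MM9NEGATIVE015 were detected in scan 2 only, and so entered through those arrays alone, and Hyal3 was detected on 4 arrays. Carhsp1 gave normalized log2 signals of 4.93, 3.41 and 5.43 on the scan 2 arrays and of 1.36 to 2.76 on the scan 1 arrays, where it was never well above background. MM9NEGATIVE015 had a mean of 3.24 ± 0.20 (SD, n = 3) in scan 2 and 1.56 ± 0.25 (SD, n = 6) in scan 1, also without detection there. With scan 1 values raised to each array's lowest detected signal, its scan 1 mean was 3.84, above that of scan 2, so no fold is given. Hyal3 gave 3.84, 3.53 and 4.11 in scan 2 and 1.42 to 3.65 in scan 1, and the scans overlapped.

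The largest differences downward were those of Il2, CUST_14_PI419532418 and Atg3. Il2 had normalized log2 signals of 3.37, 3.42 and 3.17 in scan 2 and of 4.52 to 5.31 in scan 1, without overlap. It was 2.95-fold lower in scan 2 (log2 difference −1.56 ± 0.19 SE, adjusted P = 0.000579, limma). CUST_14_PI419532418 was 2.28-fold lower (adjusted P = 0.00154) and Atg3 2.20-fold lower (adjusted P = 0.00345). Actb (log2 difference −0.85) and Acaa2 (−0.96) were also lower in scan 2, with adjusted P of 0.0199 and 0.0155 in limma. Apoe differed by −0.18 and did not pass (adjusted P = 0.532). Since scan and array cannot be separated within a liver, a difference between scans is also a difference between livers.

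The 10 spots of a probe on 1 array share the same RNA, and their spread was small. Among detected probes, the SD over spots had a median of 0.081 to 0.133 log2 units, depending on the array. Between livers of a group the 43 probes detected on all arrays had a median SD of 0.401, against 0.345 for the 5890 circRNA probes detected on all arrays. These SDs between livers hold the scan difference too, since each group has 1 array of scan 2. One probe lost most of its spots on 1 array, CUST_12_PI419532418 on IRI replicate 3, where 9 of 10 spots were marked as outliers and left out. Its 1 kept spot gave a log2 signal of 9.87, the lowest of the 10, and the median over all 10 was 11.68.

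Over the 9 arrays the probes detected throughout spanned a median of 1.08 normalized log2 units. The range was narrowest for AS_circRNA_control3000011 (0.38) and widest for Olfr1307 (2.23). Among genes it was narrowest for Prdx2, at 0.59. On IRI replicate 3 the 11 CUST probes had a median deviation of 0.60 from their own means and 8 of the 11 were highest there (0.92 and 10 of 11 before normalization). On IRI replicate 1 the 11 AS_circRNA_control probes had a median deviation of 0.65 and 9 of the 11 were highest there (0.38 and 4 of 11 before normalization). Before normalization the circRNA probes detected on all arrays had median deviations of 0.37 on IRI replicate 3 and −0.27 on IRI replicate 1. After it they lay between −0.08 and 0.05 on all 9 arrays, which quantile normalization of a table made up mostly of them fixes. IRI replicates 1 and 3 both lie in scan 1.

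**Figure D3:**
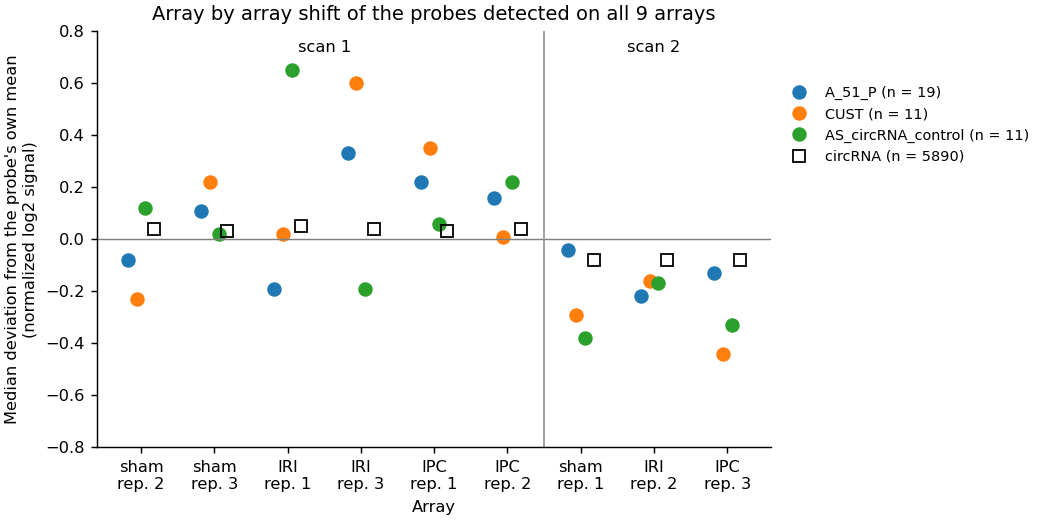
Median deviation of normalized log2 signals from each probe's own mean (vertical axis) on each array (horizontal axis), by class, for probes detected on all 9 arrays. AS_circRNA_control probes stand at 0.65 on IRI replicate 1 and CUST probes at 0.60 on IRI replicate 3, and circRNA probes, which the normalization centres, lie between −0.08 and 0.05.

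Levels were then compared between IRI and sham livers, which asks whether the injury was accompanied by a change in these probes. The median normalized log2 signal of the 94 probes was 4.17 ± 0.29 in IRI and 4.29 ± 0.13 in sham livers (SD, n = 3 each). The difference of −0.11 was within the spread between livers (exact permutation test, P = 0.60, and 3 against 3 cannot go below 0.10). Single probes were tested with limma on the whole table where they were detected on at least 3 arrays, which 70 of the 94 were. Altered probes were those that moved 1.5-fold or more and whose P in limma, before adjustment, was under 0.05. In IRI vs sham 1 of 70 probes was altered, against 4.06% of all features tested. The median log2 fold change was 0.04 over the 70 probes and −0.01 over all features, and the smallest adjusted P of the 70 was 1.

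The altered probe was AS_circRNA_control3000002. Its normalized log2 signal was 8.95, 8.96 and 8.48 on the sham arrays, 9.72, 9.54 and 9.14 on the IRI arrays, and 8.45, 8.76 and 8.57 on the IPC arrays. All 3 IRI arrays lay above all 6 others. It was 1.59-fold higher in IRI than in sham livers (log2 fold change 0.67 ± 0.26 SE, adjusted P = 1, limma). The other 12 AS_circRNA_control probes tested had log2 fold changes of −0.32 to 0.50. Groups of arrays without overlap were seen for 1 of 70 probes, the same one, against 7.26% of all features. The call was lost without sham replicate 3 (log2 fold change 0.51), IRI replicate 1 (0.55) or IRI replicate 2 (0.63), within scan 1 (0.69), and after normexp background correction without or with scan as a block (0.58 both times). The shift of its class on IRI replicate 1 moved with this result, and its part in it was not tested. Adjusted P ranged from 0.20 to 1 over all alternatives.

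None of the 40 A_51_P probes tested was altered in IRI vs sham, against 4.06% of all features tested. With scan as a block Actb and Carhsp1 were (3 of 70 probes in all, against 6.31% of all features). Carhsp1 was above background only on the 1 scan 2 array of each group, so no fold is given for it and nothing is read from its call. Without the block the smallest P among decreases was that of Olfr1307. Its normalized log2 signal was 8.69, 8.46 and 9.19 on the sham arrays, 7.06, 7.34 and 9.29 on the IRI arrays, and 9.09, 8.69 and 9.01 on the IPC arrays. IRI replicates 1 and 2 were the lowest of all 9 arrays and IRI replicate 3 the highest. The log2 fold change was −0.88 ± 0.52 (SE) and did not pass (adjusted P = 1, limma). It was −1.58 and past the threshold without IRI replicate 3, with adjusted P of 0.0934 to 1 over the alternatives. In Actb the signal was 6.40, 7.44 and 6.53 on the sham arrays, 7.52, 6.79 and 8.04 on the IRI arrays and 7.81, 7.89 and 6.87 on the IPC arrays. Sham and IRI livers overlapped, with a log2 fold change of 0.66 ± 0.43 (SE) that did not pass (adjusted P = 1, limma). With scan as a block, or without IRI replicate 2, it passed the threshold for altered probes, and adjusted P ranged from 0.54 to 1 over the alternatives. Apoe had a log2 fold change of −0.34 ± 0.27 (SE, adjusted P = 1, limma).

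By group of function, the median log2 fold change in IRI vs sham was 0.05 over the 9 metabolism and detoxification genes, −0.02 over the 10 tested genes best known in other tissues and −0.11 over the 9 tested genes of general functions. None of these genes was altered, against 4.06% of all features tested. The number of altered probes among the 70 was 2 without sham replicate 2 (2.71% of all features) and 3 without IRI replicate 3 (5.76%). It was 0 without sham replicate 3 (3.37%) or IRI replicate 1 (3.28%).

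**Figure D4:**
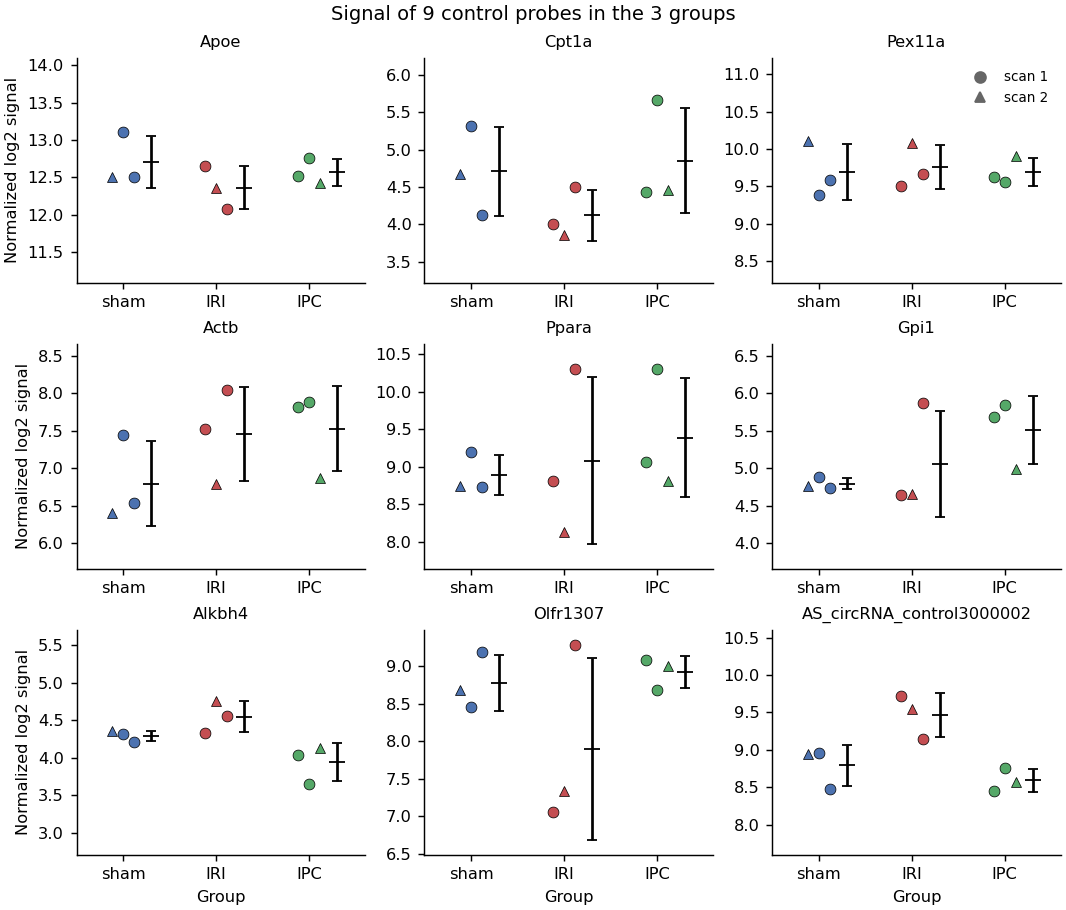
Normalized log2 signal (vertical axis, 3 log2 units in each panel) of 9 probes in the sham, IRI and IPC groups, with circles for arrays of scan 1 and triangles for scan 2, and bars for the mean and SD of 3 arrays. The IRI arrays of AS_circRNA_control3000002 lie above all others, and those of Olfr1307 span 7.06 to 9.29.

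IPC livers were compared with IRI livers, which asks what preconditioning changed in the injured liver. The median level was 4.32 ± 0.18 in IPC and 4.17 ± 0.29 in IRI livers (SD, n = 3 each), a difference of 0.15 (exact permutation test, P = 0.60). This comparison shares its IRI arrays with the one above. In IPC vs IRI 2 of 70 probes were altered, both decreased, against 3.55% of all features tested. The median log2 fold change was −0.05 over the 70 probes and −0.02 over all features. AS_circRNA_control3000002 was 1.83-fold lower in IPC (log2 fold change −0.87 ± 0.26 SE, adjusted P = 1, limma), and IPC and IRI arrays did not overlap. This call held under all 24 alternatives, with log2 fold changes of −1.04 to −0.74 and adjusted P of 0.129 to 1.

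The other was Alkbh4, of the AlkB family of dioxygenases. Its normalized log2 signal was 4.33, 4.75 and 4.56 on the IRI arrays, 4.03, 3.65 and 4.13 on the IPC arrays, and 4.35, 4.31 and 4.21 on the sham arrays. Each IPC array lay below all 6 others. All IRI and sham arrays, and 1 of the 3 IPC arrays, detected it. Alkbh4 was 1.52-fold lower in IPC than in IRI livers (log2 fold change −0.61 ± 0.24 SE, adjusted P = 1, limma). The call was lost under 11 of 23 alternatives, among them leaving out IRI replicate 2 (log2 fold change −0.51), IRI replicate 3 (−0.61) or IPC replicate 2 (−0.46), and it was −0.16 after normexp background correction. Adjusted P ranged from 0.324 to 1. Groups without overlap were seen for 2 of 70 probes, these same 2, against 6.51% of all features.

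No probe of the 70 was altered upward, against 215 of all 10605 features tested. Olfr1307 had the smallest P among increases, with a log2 fold change of 1.03 ± 0.52 (SE, adjusted P = 1, limma). Without IRI replicate 3 it was 1.74 and past the threshold, with adjusted P of 0.0807 to 1 over the alternatives. Ppara was high on 1 array of each injured group, at 10.31 on IRI replicate 3 and 10.30 on IPC replicate 2, against 8.13 to 9.20 on the other 7 arrays. Its log2 fold change in IPC vs IRI was 0.31 ± 0.55 (SE, adjusted P = 1, limma). Cpt1a (0.73 ± 0.41 SE) and Acaa2 (0.33 ± 0.47 SE) did not pass either. Over the 9 metabolism and detoxification genes the median log2 fold change was 0.20. Altered probes among the 70 numbered 7 without IRI replicate 3 (6.65% of all features), 4 without IPC replicate 3 (4.92%), and 1 without IRI replicate 2 (3.11%) or IPC replicate 2 (2.63%).

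IPC and sham livers were compared last. The median level was 4.32 ± 0.18 and 4.29 ± 0.13 (SD, n = 3 each), a difference of 0.03 (exact permutation test, P = 0.90). In IPC vs sham 0 of 70 probes were altered in limma, against 2.34% of all features tested. Unadjusted P was below 0.05 for 0 of the 70, against 253 of all 10604 features. The methods' t-test also gave 0, against 1.39% of all features. The median log2 fold change was −0.01 over the 70 probes and −0.03 over all features. Altered probes numbered 1 without sham replicate 2 (2.91% of all features), sham replicate 3 (1.64%) or IRI replicate 3 (2.54%), and 3 without IPC replicate 3 (5.85%). With scan as a block 2 were altered, Actb and H2-Q7, against 4.17% of all features. Actb, whose values stand above, had the largest log2 fold change of the 70 probes, 0.74 ± 0.43 (SE, adjusted P = 1, limma). It also passed without sham replicate 2 (1.06) or IPC replicate 3 (1.07), with adjusted P of 0.645 to 1 over the alternatives.

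Groups without overlap were seen for 2 of 70 probes in this comparison, Gpi1 and Alkbh4, against 6.04% of all features. Gpi1 had normalized log2 signals of 4.77, 4.88 and 4.74 on the sham arrays, 4.64, 4.66 and 5.87 on the IRI arrays, and 5.69, 5.85 and 4.99 on the IPC arrays. Each IPC array was above each sham array, and IRI replicate 3 was the highest of all. The log2 fold change in IPC vs sham was 0.71 ± 0.37 (SE, adjusted P = 1, limma), and 0.98 within scan 1. Gpi1 passed the threshold without IRI replicate 3 (0.72, without or with scan as a block) or IPC replicate 3 (0.98). It also passed with only the 2 groups compared (0.71), and adjusted P was 0.594 to 1 over the alternatives. Alkbh4 had a log2 fold change of −0.35 ± 0.24 (SE, adjusted P = 1, limma). H2-Q7, a class I MHC gene, had 0.67 ± 0.40 (SE, adjusted P = 1 in limma and 0.95 with scan as a block), with 10.31 and 9.92 on IPC replicates 1 and 2 and 8.65 on IPC replicate 3.

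**Figure D5:**
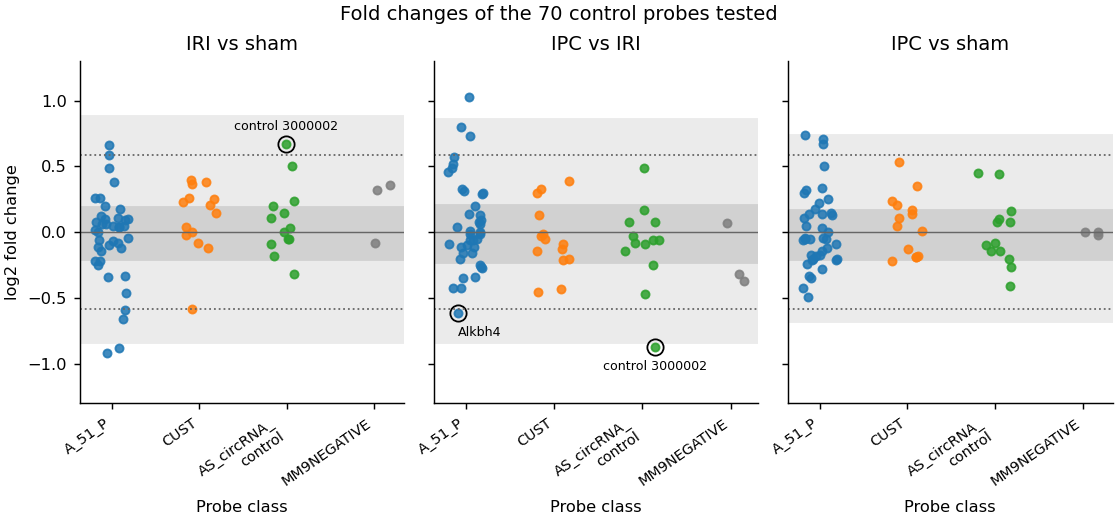
Log2 fold changes of the 70 tested probes (vertical axis) by class (horizontal axis) in the 3 comparisons, with altered probes circled, dotted lines at a 1.5-fold change, and grey bands for the middle 50% and 95% of circRNA probes. In IRI vs sham 2 of the 70 probes fall outside the wide band, in IPC vs IRI 2 and in IPC vs sham 0. Of the 2 in IRI vs sham, 1 is Carhsp1, above background on only 1 array of each group, and nothing is read from it.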

How the data were processed

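Single-color arrays (Arraystar circRNA array) were hybridized by the authors with RNase R-treated liver RNA and extracted with Agilent Feature Extraction 11.0.1.1, per the submitters' processing notes. The deposited scanner output gives the processed signal and spot and background medians as intensity on a linear scale, with flags. The deposited table of log2 values held 0 of the 94 probes and was used only to check this.

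Processed signals were put on the log2 scale, and 354 of 8460 member spots (4.18%) marked as outliers were left out. The median over kept spots was taken, and the whole table of 14330 features was quantile normalized over 9 arrays, as the methods name, with limma 3.58.1 in R 4.3.3. The 3 comparisons came from 1 fit on all 9 arrays with Benjamini-Hochberg adjustment over all features tested. Values per array were compared by exact permutation tests. The fits were tested on simulated data. Scans came from the file headers. The number of arrays limits the precision. P-values of the main group comparisons set differences against the spread between these livers, which holds the scan difference too.

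The members, gene lists, roles and naming rule were chosen with earlier results of these data known. The rule named the 5 brightest and 3 dimmest probes, up to 3 altered probes per direction and comparison (otherwise the smallest P), the 3 extreme scan differences in each direction, and genes of the cell type lists. Only Apoe (hepatocyte list) and Actb (housekeeping list) were in a list, and the Kupffer cell, neutrophil, endothelial, stellate, cholangiocyte and injury lists had no member here. The other genes named were chosen after their values were seen, and 1 probe that the rule names is not reported here. Files name an older mouse build than the RefSeq table, so no position is given. Alternatives were other scalings, background corrections, spot rules, filters, blocks, tests and each array left out. The limma test of single probes between scans, its limit to features detected on all 9 arrays, and the combinations of scan as a block with another setting were chosen after seeing the data.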

Additional observations from a re-analysis of the deposited data

How the results depend on the processing

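Precision was limited by 3 livers per group and, for dim probes, by signal over background. Altered probes numbered 1 in IRI vs sham, 2 in IPC vs IRI and 0 in IPC vs sham. With scan as a block they numbered 3, 2 and 2 (6.31%, 5.75% and 4.17% of all features), within scan 1 0, 1 and 1 (3.96%, 3.74% and 4.45%), after normexp 0, 1 and 0 (1.06%, 0.82% and 0.33%), and with only the 2 groups compared 1, 1 and 1 (3.94%, 3.01% and 2.43%). For IPC vs IRI there was 1 after scaling to the 75th percentile (3.18%), without background correction (1.24%) or when detection on all 9 arrays was required (3.19%). Of settings chosen after seeing the data, scan as a block gave 4, 4 and 1 with 75th percentile scaling, 0, 1 and 1 with normexp, and 6, 8 and 2 without IRI replicate 3, against 5.89%, 5.23% and 3.67%, 1.27%, 1.09% and 0.462%, and 10.9%, 10.9% and 4.94% of all features. Leaving out 1 array gave 0 to 3, 1 to 7 and 0 to 3, against 2.71% to 5.76%, 2.63% to 6.65% and 1.63% to 5.85% of all features. The cause was not tested. Over all features, altered features numbered 430, 377 and 248 in limma and 220, 170 and 147 by a Student t-test.

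The difference in median level between groups ranged from −0.254 to 0.035 in IRI vs sham, from −0.004 to 0.287 in IPC vs IRI and from −0.04 to 0.131 in IPC vs sham when 1 array was left out, and was 0 for IRI vs sham within scan 1. Between scans it was −0.114 after normexp, −0.563 without background correction (exact permutation P = 0.0238), 0 with all 10 spots kept, −0.184 over probes detected on all 9 arrays and −0.117 to 0.131 when 1 array was left out. The share detected minus that of the circRNA probes was −3.496 points with all kept spots well above background, 7.733 with 1 spot, −4.954 with the flag for positive and significant signal, and 1.789 to 2.732 when 1 array was left out. Spot SD was 0.105 and, without background correction, 0.079. The log2 fold change of Apoe in IPC vs sham ranged from −0.25 to 0.06 and that of Actb in IPC vs IRI from −0.25 to 0.40 when 1 array was left out.

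Arrays of the same replicate number correlated between −0.67 and 0.67, and arrays of the same scan between −0.07 and 0.77. Whether the replicate numbers pair the livers was not tested. With the replicate block 1, 2 and 0 probes were altered (3.24%, 3.02% and 1.89% of all features). In IPC vs IRI Olfr1307 passed under the replicate block (log2 fold change 1.03) and Alkbh4 did not (−0.61).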

Other observations

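Spots that the scanner software itself marks as controls were not part of any comparison above. The negative control (-)3xSLv1, with 77 spots, had median log2 signals of 1.07 to 1.93 in scan 1 and 0.10 to 0.11 in scan 2, and was well above background on no array. The bright corner control lay at 14.74 to 15.92 in scan 1 and 15.41 to 16.11 in scan 2. Among 10 E1A control probes 4 were detected on all 9 arrays and 5 on none, and all 12 RC control probes were detected on none.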
